A study of Mus musculus with 9 samples.

Results

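Histone genes were taken from a table of gene expression in the mouse ovary by their symbols, which gave 87 of 54838 genes. A symbol counted when it began with Hist1h, Hist2h, Hist3h or Hist4h, with H2af, H3f3 or H1f, or had the newer form for cluster genes, and 4 pseudogene symbols ending in a -ps name were left out. Of the 87 genes, 69 were cluster genes (6 for H1, 20 for H2A, 18 for H2B, 12 for H3 and 13 for H4) and 18 were named as variants. One of the variants by symbol, H3f3aos, is annotated as an antisense RNA of H3f3a and encodes no histone. The annotation calls 4 of the 87 pseudogenes (H3f3c, H2afy3, Hist1h2al and Hist1h2aj). No measured value was used to choose the genes.

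The ovaries came from adult mice 40 h after pregnant mare serum gonadotropin (PMSG), a hormone preparation that drives follicle growth. The 9 libraries were made from total RNA, and how RNA was selected for sequencing is not given in the sources used here. Wild type (WT), the liver X receptor double knockout labelled DKO LXR (DKO here) and the same knockout labelled TG-AMH-LXRb (DKO_TG here) had 3 libraries each. All groups received PMSG. The labels name neither the sequence nor the promoter of the transgene, nor the strain. Nothing says whether 1 or several animals gave each group, so a p-value measures sample spread alone, and that spread may be technical.

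Histones are the proteins that package DNA: H2A, H2B, H3 and H4 form the nucleosome core and H1 binds the linker between nucleosomes. Most of the cluster genes are replication-dependent. They are transcribed in S phase, when new DNA must be packaged, and most of their mRNAs end in a conserved stem-loop in place of a poly(A) tail. The stem-loop binding protein SLBP and the U7 small nuclear RNP guide the cut that makes this end. Variant genes such as H3f3a, H3f3b and H2afz are expressed outside S phase as well, and their mRNAs carry poly(A) tails. In a PMSG-stimulated ovary the granulosa cells of growing follicles divide, which makes them a main site of S phase.

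The stem-loop is shown first because it is the known mark of the cluster mRNAs. In the GENCODE M21 transcripts (mm10), the bases after each stop codon were searched for the pattern GGNNNTTTNNANNNCC with 6 paired stem bases and a loop of 4 bases. A match was found in 44 of the 52 cluster genes that had at least 16 annotated bases after the stop, in 1 of 12 such variants, and in 82 of 20983 protein-coding genes (0.391%). In cluster genes it started 21 to 58 bases after the stop, with a median of 31. The stem and loop are in capitals in the following sites from a linker histone gene, from H2B and H4 genes, and from H2afx, the variant with a match.
Hist1h1c: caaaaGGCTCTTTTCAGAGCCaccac
Hist1h2bg: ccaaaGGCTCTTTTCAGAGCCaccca
Hist1h2bk: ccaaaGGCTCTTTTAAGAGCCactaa
Hist1h4i: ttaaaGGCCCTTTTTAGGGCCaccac
Hist2h4: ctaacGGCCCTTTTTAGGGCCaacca
H2afx: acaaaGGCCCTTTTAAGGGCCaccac
The form printed for Hist1h1c and Hist1h2bg was the most common, in 26 genes, and the cluster genes held 6 different forms in all. A cluster gene without a match is one whose annotated transcript lacks these letters, and nothing more was read from it.

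The promoter windows also differed between the classes. RefSeq windows on GRCm38.p6 (250 bases before to 50 bases after the start) matched 77 of the 87 genes, and 3 motifs were searched on both strands. CCAAT, the box bound by NF-Y, was present in 53 of 62 cluster windows (85.5%), 10 of 15 variant windows (66.7%) and 37.9% of 27025 windows of all genes. It was in every H1, H2A, H2B and H3 cluster window but in 3 of 12 H4 windows. TATAAA, the letters of the TATA box, was found at any position in 35 of 62 cluster windows (56.5%), 1 of 15 variant windows and 14.2% of all windows. ATTTGCAT, the octamer bound by OCT factors, was in 7 of 18 H2A and 6 of 16 H2B windows and in no H1, H3 or H4 cluster window. It was in 1 of 15 variant windows (H3f3b, which held all 3 motifs) and in 1.75% of all windows. Some H2A and H2B windows overlap, so 1 site can count for both genes. These are matches of letters at any position of the window and not measured binding. A TATAAA match need not be a TATA box, and that of Hist1h4i below lies well before the start. None of the 3 motifs contains another, and they are in capitals below, ATTGG being CCAAT on the other strand and TTTATA and ATGCAAAT the reverse of the other 2. The 3 windows show an H2B gene with all 3 motifs, an H4 gene with TATAAA alone, and H2afz, a variant gene with CCAAT alone.
Hist1h2bg, chr13:23571150-23571449, plus strand: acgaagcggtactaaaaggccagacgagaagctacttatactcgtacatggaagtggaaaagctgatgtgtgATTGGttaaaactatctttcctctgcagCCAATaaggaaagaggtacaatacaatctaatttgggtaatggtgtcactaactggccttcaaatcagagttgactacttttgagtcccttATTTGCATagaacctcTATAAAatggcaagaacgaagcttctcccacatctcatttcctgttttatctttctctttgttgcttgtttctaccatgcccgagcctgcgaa
Hist1h4i, chr13:22041313-22041612, minus strand: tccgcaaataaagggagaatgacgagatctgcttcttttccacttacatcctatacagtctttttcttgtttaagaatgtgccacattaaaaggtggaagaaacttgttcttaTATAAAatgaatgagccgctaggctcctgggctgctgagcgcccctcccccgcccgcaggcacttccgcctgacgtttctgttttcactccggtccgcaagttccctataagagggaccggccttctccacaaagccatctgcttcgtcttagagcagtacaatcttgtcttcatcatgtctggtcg
H2afz, chr3:137864237-137864536, plus strand: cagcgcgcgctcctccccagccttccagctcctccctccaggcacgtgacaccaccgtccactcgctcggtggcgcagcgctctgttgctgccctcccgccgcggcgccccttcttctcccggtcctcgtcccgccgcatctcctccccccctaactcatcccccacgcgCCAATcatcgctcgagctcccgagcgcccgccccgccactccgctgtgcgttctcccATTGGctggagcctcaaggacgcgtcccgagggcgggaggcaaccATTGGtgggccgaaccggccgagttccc

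Cluster genes lay together in the genome: 56 of 69 were on chromosome 13, 10 on chromosome 3, 2 on chromosome 11 and 1 on chromosome 6, and 64 of them had a single exon. Of the 18 variants, 8 had more than 1 exon. Close copies share sequence, so reads of one gene can fit another. The share of a cluster gene's 31-base windows that also occurs in another gene had a median of 80.8% for H2A, 63.1% for H3, 57.4% for H2B, 47.9% for H4 and 3.82% for H1. How the authors' counting treated such reads is not given in the sources used here, so levels of single cluster genes are uncertain, as are those of H3f3c (91.3% shared, most of it with H3f3a).

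Expression values are RPKM (reads per kilobase of gene length, scaled by a library size), and the reads behind them were recovered. Totals were 57.7, 48.6 and 53.7 M reads for WT, 46.1, 59.2 and 59.4 M for DKO, and 46.2, 40.1 and 47.6 M for DKO_TG. The library size behind RPKM was 0.793 to 0.920 of the total in WT and 1.03 to 1.11 in the other groups, so the deposited values carry a rescaling that differs between WT and both knockout groups. Nr1h3 and Nr1h2, the targeted receptor genes, fell in DKO against WT by 2.00 and 1.45 on the log2 scale (limma, adjusted p = 3.24e-05 and 0.000119). In DKO_TG they were lower than in WT also, at -2.15 and -1.63 (limma adjusted p = 2.32e-05 and 6.62e-05). Nr1h2, which encodes LXRb, was at 7.79, 6.02 and 5.79 RPKM in the DKO libraries and at 5.14, 5.96 and 5.90 in those labelled TG-AMH-LXRb. The log2 difference between these groups was -0.18 ± 0.16 (SE, limma adjusted p = 0.621), so no higher Nr1h2 level was detected with the transgene label, and DKO_TG means that label throughout. The WT libraries stood apart in nuclear RNA: Malat1, retained in the nucleus, was at 1.67, 9.36 and 11.1 RPKM in WT and between 176.9 and 278.6 RPKM in the other 6 libraries. Rn7sk, a nuclear RNA without a poly(A) tail, stood at 41.9, 49.0 and 40.1 RPKM across WT, 15.3, 27.4 and 17.2 across DKO, and 20.6, 25.3 and 48.1 across DKO_TG. The part of these differences in any result against WT was not tested.

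Levels differed widely by histone type. Over the 9 libraries the median gene was at 7.29 RPKM among cluster H2B genes, 2.27 among H4, 0.400 among H2A, 0.313 among H3 and 0.210 among H1. Among variants it was 160.9 RPKM for H3, 8.43 for H2A and 4.38 for H1. RPKM is per length, but the shared sequence limits how far these levels compare between genes. In the cluster, Hist1h1c (linker histone H1.2) at 24.4 and Hist1h2bc at 23.6 RPKM were highest, followed by Hist1h2bg at 14.3 and Hist1h2bl at 14.2. The highest variants were H3f3c at 278 RPKM, H2afz at 184, H3f3b at 161 and H1f0 at 65.0. The filter for testing (at least 0.5 RPKM in at least 3 libraries) was passed by 58 genes, 45 of 69 cluster genes and 13 of 18 variants. Of the 24 cluster genes and 5 variants that did not pass, 8 were listed at 0 in every library, among them 5 cluster genes whose exons are wholly covered by another annotated gene.

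**Figure D1:**
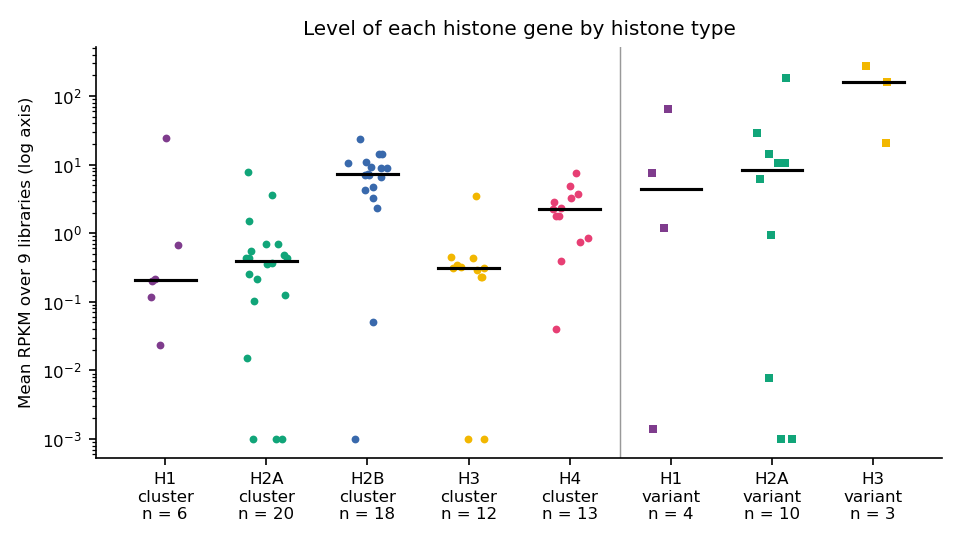
Mean RPKM over the 9 libraries (log axis) of each histone gene by type, with circles for cluster genes, squares for variants and a bar at the median. Genes at 0 are drawn at the bottom of the axis, and H3f3aos is not drawn. Cluster H2B genes (median 7.29 RPKM) lie above cluster H2A genes (median 0.400).

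H2A and H2B differed although many of them share a promoter. In 10 pairs an H2A and an H2B gene start back to back on opposite strands, with 220 to 279 bases of promoter window in common. The H2B gene was higher in 10 of 10 pairs. In the 9 pairs with both genes above 0 the ratio was 6.80 to 59.0, with a median of 16.3. Hist1h2ae and Hist1h2bg, whose shared window is printed above, were at 0.432 and 14.3 RPKM. Beside this, 19 of 20 cluster H2A genes overlapped an annotated microRNA gene, over a median of 28.7% of their length, and no H2B gene did. The part of that overlap, and of the larger shared sequence of H2A genes, in the counts was not tested.

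**Figure D2:**
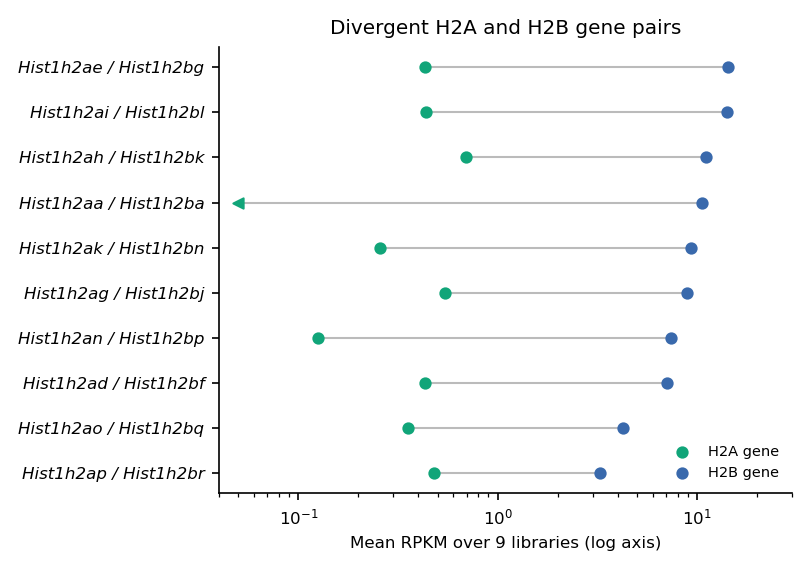
Mean RPKM over 9 libraries (log axis) of the H2A gene (green) and the H2B gene (blue) of each of the 10 divergent pairs, joined by a line. Hist1h2aa is listed at 0 and is drawn as an arrow at the edge. The H2B gene is to the right in every pair, by 6.80 to 59.0 times where both are above 0.

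The cluster genes varied widely between libraries of 1 genotype. Their summed level was 245.6, 287.9 and 215.4 RPKM in WT replicates 1, 2 and 3, 254.7, 212.0 and 71.6 RPKM in DKO, and 161.4, 340.6 and 250.5 RPKM in DKO_TG. DKO replicate 3 was the lowest of all and DKO_TG replicate 2 the highest, and the ranges of the 3 groups overlapped. The group means were 249.6 ± 36.4 RPKM for WT, 179.4 ± 95.8 for DKO and 250.8 ± 89.6 for DKO_TG (SD, n = 3 each). The variants summed to 927, 868 and 843 RPKM across WT, 678, 755 and 769 across DKO, and 727, 782 and 756 across DKO_TG. In these sums the WT libraries were the 3 highest, and DKO replicate 3 was the highest of its group. The place of WT depended on the scale. Per 1 M reads, the variants held 1213, 1317 and 1225 reads across WT, 1246, 1278 and 1387 across DKO, and 1308, 1386 and 1364 across DKO_TG. WT replicate 1 was then the lowest of all. The largest part of the variant sum was H3f3c, at 278 RPKM on average, whose level is uncertain because of its shared sequence. The ratio of summed cluster to summed variant RPKM averaged 0.284 ± 0.0415 for WT, 0.250 ± 0.144 for DKO and 0.330 ± 0.107 for DKO_TG (SD, n = 3 each). Within DKO it was 0.376, 0.281 and 0.0931 in replicates 1, 2 and 3. Counted as reads, DKO replicate 3 held 4388 cluster reads, or 73.9 per 1 M reads, and the other libraries 7136 to 12032 reads, or 154 to 294 per 1 M.

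**Figure D3:**
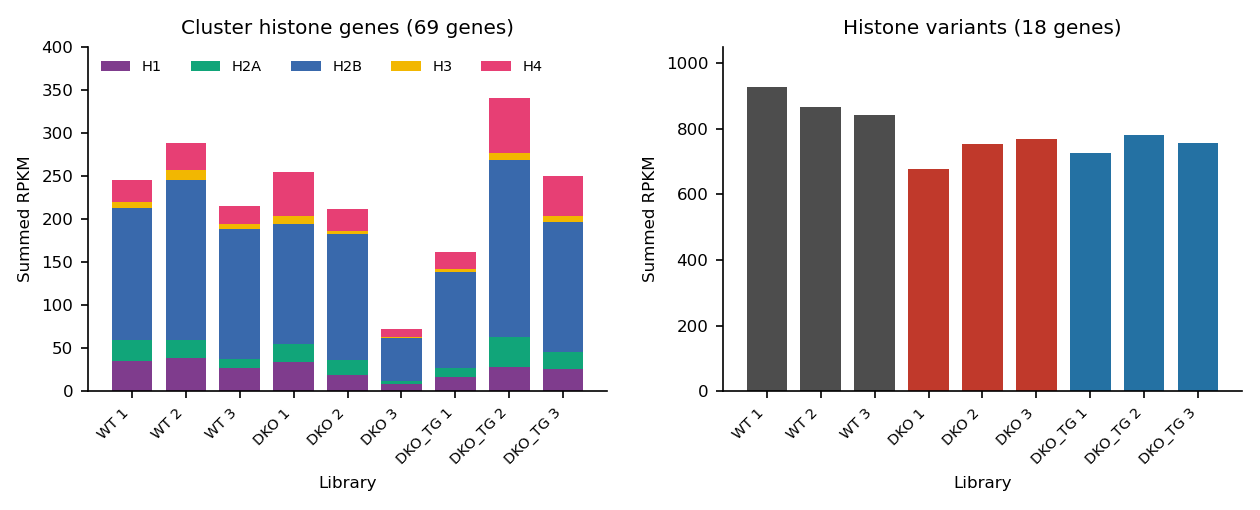
Summed RPKM in each library of the 69 cluster genes, stacked by histone type, and of the 18 variants, with both axes starting at 0. The cluster sum is 71.6 RPKM in DKO replicate 3 and 161.4 to 340.6 in the other libraries, and the variant sum stays between 678 and 927.

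The shift between libraries ran through all types of cluster gene. DKO replicate 3 had the lowest value of its group in 45 of 45 tested cluster genes and the lowest of all 9 libraries in 39, against 32.3% and 12.97% of all 18889 genes tested. DKO_TG replicate 1 was the lowest of its group in 43 of 45 and DKO_TG replicate 2 the highest in 44 of 45, against 36.2% and 36.1% of all genes. In WT, replicate 2 was the highest in 32 of 45, against 22.9% of all genes. For each gene the level in DKO replicate 3 was 0.0803 to 0.699 of the mean of the other DKO libraries, with a median of 0.293. Over the 13 tested variants that ratio had a median of 1.05 and ran from 0.552 to 1.54. The median ratio was 0.298 in the 11 genes with at least 300 annotated bases after the stem-loop, 0.281 in the 19 with fewer, and 0.306 in the 15 without a match.

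The spread within groups was correspondingly wide for the cluster. On log2(RPKM + 0.5) the median SD between libraries was 0.28 in WT, 0.73 in DKO and 0.52 in DKO_TG for cluster genes. For variants it was 0.11, 0.19 and 0.09, and for all genes tested 0.16, 0.19 and 0.10. Between the highest and the lowest of the 9 libraries, the typical cluster gene differed 6.46-fold and the typical variant 1.79-fold. H2B made up 54.8% to 70.3% of the summed cluster level in each library.

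**Figure D4:**
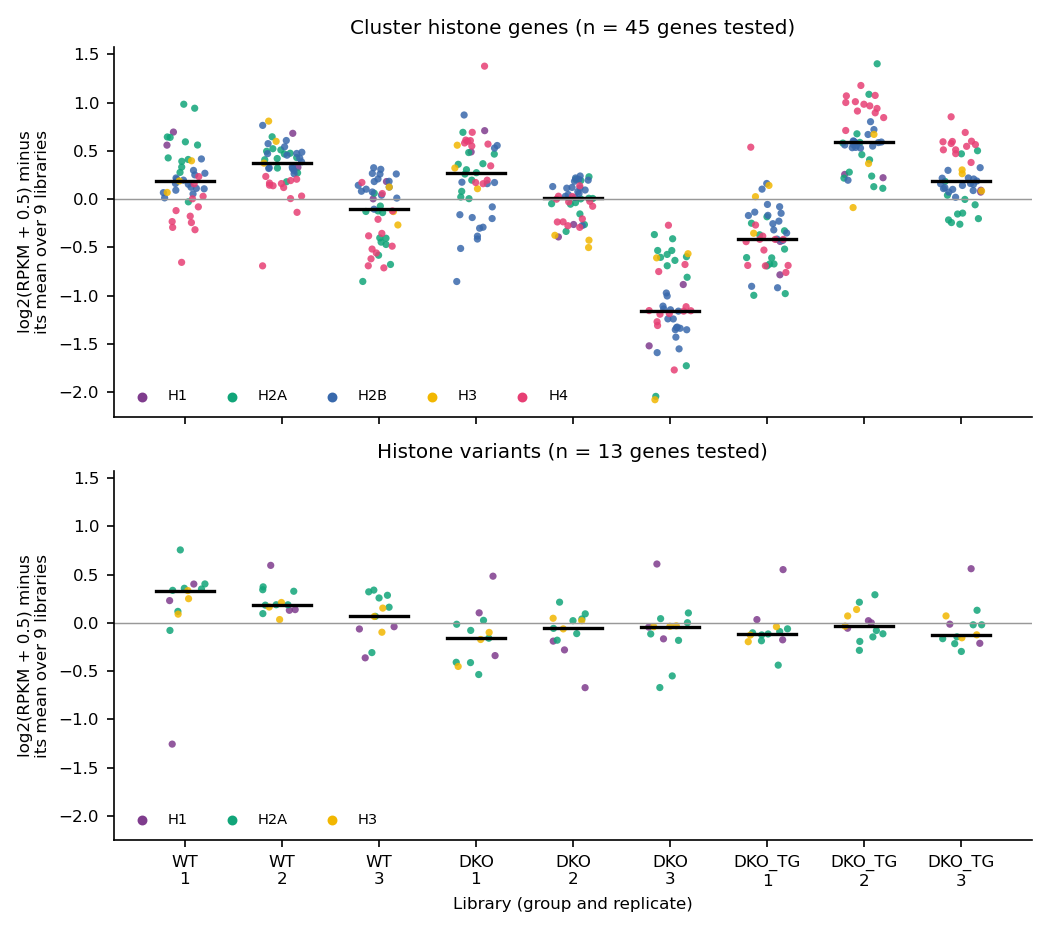
Each point is 1 tested gene, plotted as its log2(RPKM + 0.5) minus its mean over the 9 libraries, for 45 cluster genes (top) and 13 variants (bottom), with a bar at the median and colours for the histone type. The cluster median is -1.15 in DKO replicate 3, -0.41 in DKO_TG replicate 1 and 0.59 in DKO_TG replicate 2, and the variant medians lie between -0.16 and 0.33.

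Genes of DNA replication did not follow this order of libraries. The summed level of the 28 replication and S phase genes was 262.3, 290.4 and 315.3 RPKM across WT, 153.6, 196.4 and 268.2 across DKO, and 238.2, 205.6 and 226.3 across DKO_TG. Within DKO, replicate 3 was thus the highest in replication genes and the lowest in cluster histones, and replicate 1 the reverse. Within DKO_TG, replicate 2 was the lowest in replication genes and the highest in cluster histones. Mki67, a marker of dividing cells named here after its values were seen, was at 9.79, 12.3 and 18.8 RPKM in DKO. The RNAs without a poly(A) tail or retained in the nucleus summed to 307.0, 314.8 and 253.6 RPKM in DKO and to 334.3, 368.0 and 406.5 in DKO_TG, lowest in the same library as the cluster genes in both groups. The highest libraries differed, and in WT, at 49.4, 65.6 and 57.7 RPKM, the lowest was replicate 1 for these RNAs and replicate 3 for the cluster. Rn7sk did not rank so in DKO, where replicate 1 was lowest. Malat1 alone was at 212.8, 205.9 and 176.9 RPKM in DKO and 246.2, 257.6 and 278.6 in DKO_TG, most of each sum. In both knockout groups the lowest library of the sum is thus that of Malat1, and Neat1 was lowest there too. Snhg1, also in the list, was lowest in DKO replicate 1 and DKO_TG replicate 2. In bulk tissue, fewer cells of a type and less RNA per cell cannot be told apart.

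The comparison of DKO with WT asks what the loss of both receptors changes. Of 45 cluster genes, 1 rose (Hist2h4) and 2 fell (Hist1h2bk and Hist1h2bn) at an adjusted p under 0.05 in limma, where 30.8% of all genes rose and 25.9% fell. Hist2h4 passed the filter only through libraries where it was high. No overlap with WT was seen in 1 gene above it and 5 below it, against 32.6% and 28.6% of all genes. Below 0 were 41 of 45, and the median log2 change was -0.41, against 0.02 for all genes. These depended on the scale, with 25 of 45 below 0 and a median of -0.05 in TPM, 36 and -0.21 with the plain total of reads, and 45 and -0.73 with quantile normalization. Minus the median of all genes, the cluster median was -0.43 as deposited, -0.59 in TPM, -0.50 with the plain total and -0.67 with quantile normalization. By type the median was -0.67 for H2B (16 of 16 below 0), -0.38 for H2A (12 of 12), and -0.05 for H4 (8 of 12). The H4 median was above 0 in TPM (0.34) and with the plain total (0.15). Without DKO replicate 3 the median over the cluster was -0.08, with 26 of 45 below 0 and none called lower. Without DKO replicate 2 it was -0.48, with 8 called lower, and without DKO replicate 1 it was -0.70, with 42 of 43 below 0 and 4 called lower.

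Hist1h2bk, an H2B gene, stood at 12.1, 14.5 and 12.5 RPKM across WT, 7.10, 11.4 and 3.82 across DKO, and 9.13, 15.9 and 13.1 across DKO_TG. All DKO libraries were below all WT libraries. Its log2 change in DKO against WT was -0.89 ± 0.33 (SE, limma adjusted p = 0.0469). Hist1h2bn, another H2B gene, stood at 9.68, 13.4 and 9.18 RPKM across WT, 4.56, 10.04 and 3.37 across DKO, and 9.74, 13.3 and 10.7 across DKO_TG. DKO replicate 2 lay inside the WT range, and the log2 change was -0.91 ± 0.33 (SE, limma adjusted p = 0.0412). Both calls were lost without DKO replicate 3 (limma adjusted p = 0.123 and 0.127), without any 1 of the WT libraries, DKO replicate 1, or DKO_TG replicate 2 or 3, and that of Hist1h2bn also without DKO_TG replicate 1 (from 0.0519 over both genes).

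Other abundant cluster genes did not pass the test. Hist1h1c stood at 33.2, 36.2 and 25.5 RPKM across WT, 31.6, 18.6 and 7.49 across DKO, and 16.4, 26.2 and 23.9 across DKO_TG. DKO replicate 1 lay inside the WT range and replicate 3 far below it, and the log2 difference was -0.91 ± 0.44 (SE, limma adjusted p = 0.104). Hist1h2bc, at 24.6, 27.7 and 23.6 RPKM in WT, was at 31.8, 23.8 and 6.94 in DKO and 17.1, 33.5 and 23.5 in DKO_TG. The DKO libraries lay on both sides of WT (adjusted p = 0.381 in limma). Hist1h2bg stood at 14.4, 18.2 and 16.98 RPKM across WT, 10.9, 14.2 and 5.02 across DKO, and 12.9, 20.1 and 15.6 across DKO_TG. Its DKO libraries were all under WT by a narrow gap, with a log2 difference of -0.80 ± 0.32 (SE, adjusted p = 0.0616 in limma). The other abundant H2B genes (Hist1h2bl, Hist1h2ba, Hist1h2bb, Hist1h2bj and Hist1h2bp) had differences from -0.83 to -0.39, with adjusted p from 0.0527 to 0.547 in limma.

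H4 genes had another pattern between libraries. Hist1h4i stood at 5.10, 6.52 and 4.87 RPKM across WT, 17.3, 5.17 and 1.51 across DKO, and 4.76, 13.96 and 9.89 across DKO_TG. DKO thus held both its highest and its lowest library, and the log2 difference was -0.02 ± 0.69 (SE, limma adjusted p = 0.985). H4 took 20.1% of the summed cluster level in DKO replicate 1, 12.4% in replicates 2 and 3, and 9.67% to 10.8% in WT. In DKO_TG the H4 share was 11.7% in replicate 1, 18.8% in replicate 2 and 18.6% in replicate 3. Hist1h2al, annotated as a pseudogene of H2A with 81.9% shared windows, stood at 9.02, 8.05 and 3.42 RPKM across WT, 9.28, 7.59 and 1.22 across DKO, and 5.14, 18.2 and 9.30 across DKO_TG, with no call in any comparison.

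Hist2h4, an H4 gene on chromosome 3 (96261682 to 96263311, minus strand, mm10), was the cluster gene called higher, and is named after its values were seen because its mean is under 1 RPKM. The WT libraries held 2, 1 and 5 reads of it, the DKO libraries 61, 22 and 20, and the DKO_TG libraries 56, 58 and 59. In RPKM this was 0.0268, 0.0137 and 0.0635, then 0.731, 0.220 and 0.188, then 0.704, 0.858 and 0.727. No knockout library overlapped WT. Hist2h4 reached the filter level of 0.5 RPKM only in DKO replicate 1 and the DKO_TG libraries. It was thus tested only because of groups where it was high. The log2 change of RPKM + 0.5 was 0.67 ± 0.21 in DKO and 1.24 ± 0.21 in DKO_TG against WT (SE, limma adjusted p = 0.0262 and 0.00158), and with quantile normalization it was -0.03 and 0.55. The DKO call was lost without WT replicate 1 or 2 (adjusted p = 0.0662 and 0.0693 in limma). In its annotated transcript 1257 bases lie after the stem-loop, and 2.50% of its windows were shared with other genes.

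In DKO_TG against WT, 1 of 45 cluster genes rose (Hist2h4) and 0 fell in limma, where 29.1% of all genes rose and 22.3% fell, and 1 of 45 had an unadjusted p under 0.05. Hist2h4 passed the filter only through libraries where it was high, and with a filter at 1 RPKM 0 cluster genes rose. The groups did not overlap in 1 gene above WT and 0 below, against 35.6% and 30.2% of all genes. The median was -0.04, with 20 above and 25 below 0. In TPM it was 0.44 with 37 above 0, with the plain total 0.18 with 30 above, and with quantile normalization -0.17 with 16 above. It was 0.13 without DKO_TG replicate 1, -0.20 without DKO_TG replicate 2 and 0.03 without WT replicate 2. H4 genes were above 0 in 12 of 12, with a median of 0.47, and H2A genes below 0 in 10 of 12, with a median of -0.37. In TPM the H2A median was -0.20 with 7 of 12 below 0, and with quantile normalization the H4 median was 0.08 with 9 of 12 above 0. With a filter at 1 RPKM, the median was -0.02 over the 5 H2A genes left (3 below 0) and 0.42 over 9 H4 genes. Without DKO_TG replicate 1 the H2A median was -0.09 (7 of 12 below 0) and the H4 median 0.89. Without DKO_TG replicate 2 the H2A median was -0.61 and the H4 median 0.18 (9 of 12 above 0). In DKO_TG against DKO no cluster gene passed the limma test in either direction, where 0.498% of all genes rose and 1.73% fell, and 4 of 45 had an unadjusted p under 0.05. In 0 of 45 were the groups apart in either direction, against 12.1% of all genes for each. The median was 0.50, with 40 of 45 above 0. Without DKO replicate 3 it was 0.11, with 31 of 45 above 0, and without DKO_TG replicate 2 it was 0.27. Without DKO replicate 1 or DKO_TG replicate 1 it was 0.72 and 0.77. Hist1h2bn had the largest difference, 0.98 ± 0.33 (SE, limma adjusted p = 0.194). Each knockout group was compared with the same WT libraries.

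Variants varied less between libraries, and 5 of 13 fell in DKO against WT with 0 higher in limma, where 25.9% of all genes fell. In DKO_TG against WT 4 of 13 fell, also with 0 higher, where 22.3% of all genes fell. Without overlap below WT were 7 of 13 in DKO and 6 of 13 in DKO_TG, against 28.6% and 30.2% of all genes. Their median log2 change was -0.31 and -0.27. Because of the rescaling in the deposited values, the size of a change against WT depends on the scale. TPM raised the median of all genes against WT by 0.53 in DKO and 0.49 in DKO_TG, and the plain total of reads raised it by 0.27 and 0.23. The variant medians minus the median of all genes were -0.33 and -0.30 as deposited, -0.35 and -0.29 in TPM, -0.32 and -0.28 with the plain total, and -0.06 and 0.01 with quantile normalization.

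**Figure D5:**
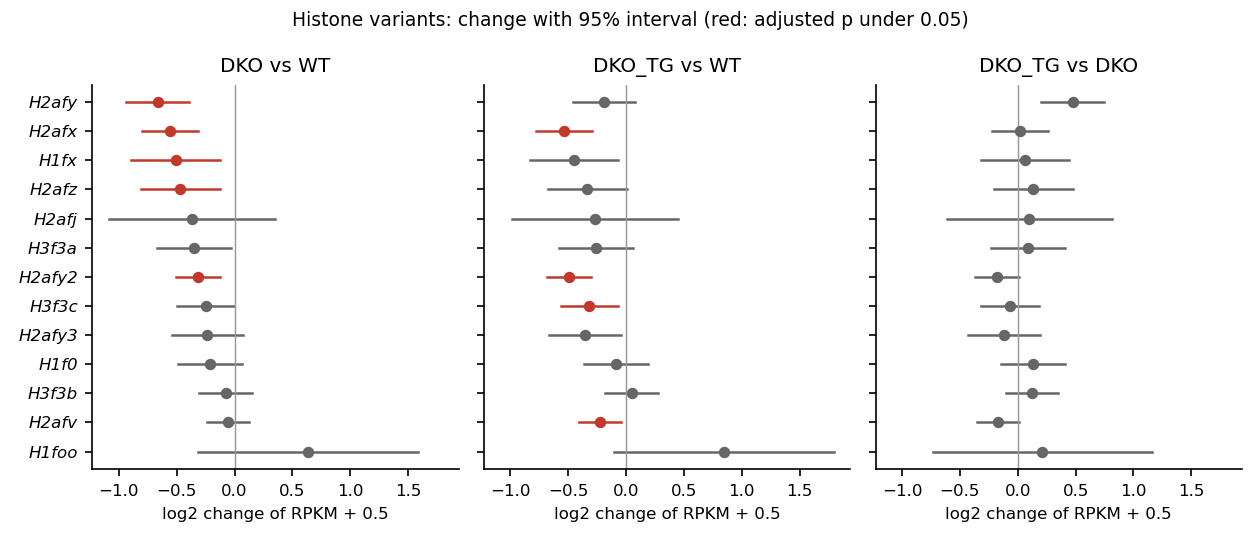
The log2 change of RPKM + 0.5 of the 13 tested variants in the 3 comparisons, with the 95% interval from limma, in red where the adjusted p was under 0.05. Red points are 5 in DKO against WT, 4 in DKO_TG against WT and 0 in DKO_TG against DKO, and all lie below 0.

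Variants of H2A held most of the calls. H2afx encodes H2A.X, which is phosphorylated at DNA breaks, and its transcript is known to occur in both stem-loop and polyadenylated forms. It stood at 18.96, 18.6 and 17.9 RPKM across WT, 10.6, 13.6 and 13.1 across DKO, and 13.3, 11.6 and 12.8 across DKO_TG. All 6 knockout libraries lay below WT, and DKO replicate 3 did not stand apart in it. The log2 change was -0.56 ± 0.11 in DKO and -0.54 ± 0.11 in DKO_TG (SE, limma adjusted p = 0.00238 and 0.00309), and in TPM it was -0.02 and -0.03, with no call.

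H2afz, which encodes H2A.Z at promoters and enhancers, stood at 232.1, 206.2 and 216.5 RPKM across WT, 124.7, 167.5 and 186.5 across DKO, and 168.5, 171.2 and 178.5 across DKO_TG. The groups did not overlap with WT. The log2 change was -0.47 ± 0.15 in DKO (SE, limma adjusted p = 0.026) and -0.34 ± 0.15 in DKO_TG (adjusted p = 0.0915), and in DKO it was 0.08 in TPM and 0.17 with quantile normalization. The call was also lost without WT replicate 1 or 3 (limma adjusted p = 0.0685 and 0.0588). H2afv, the second H2A.Z gene, stood at 31.1, 30.6 and 29.99 RPKM across WT, 27.1, 30.5 and 30.7 across DKO, and 26.2, 26.4 and 25.5 across DKO_TG. It was lower in DKO_TG by a narrow margin, -0.23 ± 0.08 (SE, limma adjusted p = 0.0385), and above WT in TPM (0.30), quantile normalization (0.07) and with the plain total (0.03). Leaving out any 1 WT or DKO_TG library ended the call (limma adjusted p from 0.0688 to 0.123).

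H2afy and H2afy2 encode the macroH2A proteins, found on silent chromatin. H2afy stood at 13.5, 13.4 and 11.8 RPKM across WT, 7.76, 9.21 and 7.01 across DKO, and 10.03, 12.3 and 11.5 across DKO_TG. DKO lay below both other groups without overlap. The log2 change was -0.67 ± 0.12 in DKO against WT (SE, limma adjusted p = 0.00175). DKO_TG against DKO gave 0.47 ± 0.12, the largest difference of a variant there, without passing the test (adjusted p = 0.0869 in limma). H2afy2 stood at 13.4, 12.03 and 12.9 RPKM across WT, 9.38, 10.7 and 10.5 across DKO, and 9.20, 9.15 and 8.48 across DKO_TG. It fell in both, by 0.31 and 0.49 on the log2 scale (limma adjusted p = 0.0123 and 0.0015), but was above WT in TPM (0.22 and 0.01).

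H3.3, the replacement H3 placed outside replication, comes from H3f3a and H3f3b. H3f3b stood at 171.1, 164.6 and 150.2 RPKM across WT, 150.01, 153.9 and 156.3 across DKO, and 156.4, 176.9 and 168.9 across DKO_TG. Both knockout groups overlapped with WT, and the 95% interval of the log2 difference from WT was -0.30 to 0.15 in DKO and -0.18 to 0.28 in DKO_TG. Between the knockout groups, the lowest DKO_TG library lay just above the highest DKO library, with no call. H3f3a stood at 26.2, 23.99 and 21.6 RPKM across WT, 14.97, 21.4 and 20.2 across DKO, and 18.9, 21.7 and 18.9 across DKO_TG, with -0.35 ± 0.14 in DKO (SE, limma adjusted p = 0.061). H3f3c, annotated as a processed pseudogene, stood at 329.3, 310.1 and 307.8 RPKM across WT, 245.5, 281.2 and 270.1 across DKO, and 241.7, 270.3 and 248.6 across DKO_TG. It was lower in DKO_TG by -0.32 ± 0.11 (SE, limma adjusted p = 0.0388), and above WT in TPM (0.21) and quantile normalization (0.35). This call was lost without any 1 WT or DKO_TG library or DKO replicate 3 (limma adjusted p from 0.0546 to 0.137).

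Among the linker histone variants, H1fx was called. H1fx (H1.10) stood at 1.70, 2.02 and 1.12 RPKM across WT, 0.819, 0.963 and 1.118 across DKO, and 0.977, 1.168 and 0.940 across DKO_TG. It fell in DKO by 0.51 on the log2 scale (limma adjusted p = 0.0285), and the highest DKO library was just under the lowest WT library. The call was lost without WT replicate 1 or 2 or DKO replicate 1 or 2 (limma adjusted p from 0.0535 to 0.0993). H1f0, a linker histone of differentiated cells, stood at 75.98, 70.8 and 61.9 RPKM across WT, 69.5, 53.2 and 57.6 across DKO, and 66.2, 65.7 and 64.1 across DKO_TG, with overlapping groups and no call. H1foo, the linker histone of the oocyte, stood at 2.62, 7.69 and 5.29 RPKM across WT, 9.91, 4.18 and 10.9 across DKO, and 10.4, 6.66 and 10.5 across DKO_TG, again with no call. The summed level of the 12 oocyte markers was 23.2, 49.5 and 45.3 RPKM across WT, 110.5, 46.0 and 101.8 across DKO, and 103.4, 70.4 and 101.6 across DKO_TG. H1foo and the marker sum were lowest in the same library in each group. The part of oocyte content in the H1foo values was not tested. H2afj and H2afy3 had no call in any comparison, with log2 differences from WT between -0.37 and -0.23.

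Of all genes tested, 30.8% rose and 25.9% fell in DKO against WT, and 29.1% rose and 22.3% fell in DKO_TG. The counts for genes that process histone mRNA or place histones stand beside these shares. Of 20 tested genes of histone pre-mRNA processing, 5 rose and 7 fell in DKO against WT (median 0.05), and 6 rose and 7 fell in DKO_TG (median -0.00304). Srrt (ARS2), an adaptor of the cap-binding complex, was at 16.9 RPKM in WT on average and rose by 0.60 on the log2 scale in DKO (limma adjusted p = 0.0005). Ncbp1, the large cap-binding subunit, and Cpsf3, the nuclease that cuts the pre-mRNA, fell by 0.70 and 0.60 (limma adjusted p = 0.000816 and 0.00104). Their log2 changes were -0.17 and -0.07 in TPM, and -0.47 and -0.49 with quantile normalization. Slbp itself, named after its values were seen, stood at 5.98, 7.02 and 7.32 RPKM across WT, 8.73, 9.30 and 10.97 across DKO, and 10.96, 10.7 and 10.4 across DKO_TG. It rose in both knockout groups, by 0.48 and 0.62 (limma adjusted p = 0.00504 and 0.00149), and DKO replicate 3 was its highest DKO library. Other genes of this list, also named after their values were seen, did not rise. Lsm10 fell in DKO_TG against WT (-0.41, limma adjusted p = 0.0191) with no call in DKO, and Npat and Lsm11 had no call against WT.

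Of 25 tested chaperone and assembly genes, 7 rose and 8 fell in DKO (median -0.05), and 7 rose and 4 fell in DKO_TG (median -0.03). Ubn2, of the H3.3 chaperone complex HIRA, rose by 1.51 and Atrx, of the other H3.3 pathway, by 0.90 (limma adjusted p = 0.000182 and 0.000965). Anp32e, which removes H2A.Z, fell by 0.68 in DKO (limma adjusted p = 0.000723). Its log2 change was -0.14 in TPM, -0.27 with quantile normalization and -0.37 with the plain total. Of 27 tested replication genes, 1 rose and 14 fell in DKO (median -0.47), and 1 rose and 9 fell in DKO_TG (median -0.30), where 25.9% and 22.3% of all genes fell. Mcm6, of the replicative helicase, fell by 1.46, Tyms, of thymidylate synthesis, by 0.85, and Cdk2 rose by 1.16 (limma adjusted p = 0.000667, 0.00332 and 2.11e-05). Relative to the median of all genes, the replication genes were at -0.48 in DKO as deposited and at -0.50 in TPM, where 1 rose and 1 fell. In DKO_TG against DKO no gene of these 3 lists passed the test in limma, with 1 of 20, 1 of 25 and 0 of 27 at an unadjusted p under 0.05.

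Macrophage and oocyte markers were called between the groups as well. Of 8 macrophage markers, 7 rose in DKO against WT and 7 fell in DKO_TG against DKO, where 1.73% of all genes fell, and their sum was 120.6 to 155.8 RPKM in WT, 176.9 to 356.3 in DKO and 85.8 to 90.0 in DKO_TG. Itgam, counted in both, reached the filter level of 0.5 RPKM only in the DKO libraries (0.856, 2.45 and 1.77). It was thus tested only because of the group where it was high. Of 12 oocyte markers, 6 rose in DKO and 8 in DKO_TG against WT. Of all genes, 30.8% rose in DKO and 29.1% in DKO_TG. Of 8 granulosa markers, 1 fell in DKO and 2 in DKO_TG, beside 25.9% and 22.3% of all genes, and their sum was 1807 to 2513 RPKM in WT, 1136 to 2306 in DKO and 1670 to 2046 in DKO_TG. The 8 erythrocyte markers summed to 360.5 to 1657 RPKM in WT, 562.6 to 2414 in DKO and 197.8 to 284.8 in DKO_TG. Leukocyte markers other than macrophage genes summed to 2.40 to 3.61 RPKM in WT, 5.90 to 11.8 in DKO and 3.07 to 3.93 in DKO_TG, so DKO lay above both other groups. By these sums, no marker list had its lowest or highest library of all 9 in DKO replicate 3, where the cluster histones were lowest. The granulosa sum was mostly Inha, at 1479 RPKM on average, and single markers did stand out there. Fshr (27.0 RPKM), Cyp19a1 (32.6), Inhba (262.5), Nr5a2 (61.4) and Hsd17b1 (246.95) were highest of all 9 in DKO replicate 3. Foxl2 (22.7) was lowest there, and Inha and Amh were neither. Some markers of other lists, such as Oosp1 and Alas2, were also highest there. The part of cell content in the histone values was not tested.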

How the data were processed

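The authors deposited 1 table of RPKM values with 1 column for each of the 9 libraries. The submitters' processing notes list DESeq2 1.2.8, HTSeq 0.5.4p5, HISAT2 2.1.0 and cutadapt, and the build mm10. How RPKM was made, which annotation was used, how RNA was selected and whether counting used strand is not given in the sources used here. Columns were matched to samples by group and number. The transgene columns spell the transgene with AMB in place of AMH. GENCODE M21 (mm10) gave symbols, positions and exon lengths and matched all 87 histone genes. RPKM times exon length gave whole reads for 97.6% to 97.9% of values above 0 in each library (tolerance 0.01 read or a relative 1e-06), and for all 87 histone genes.

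The main test was limma 3.58.1 in R 4.3.3 applied to log2(RPKM + 0.5) (lmFit, eBayes with a trend) over 18889 genes with at least 0.5 RPKM in at least 3 libraries, all 9 libraries in one fit. A gene was called at a Benjamini-Hochberg adjusted p under 0.05 over all genes, and this scale understates changes of weakly expressed genes. The fit was tested on simulated data. Means are ± SD, differences ± SE. Named genes are every tested variant, the 12 cluster genes with the highest mean, up to 6 called cluster genes per comparison with a mean of at least 1 RPKM, up to 3 genes of each other list with the smallest adjusted p in DKO against WT, and the targeted genes. The oocyte, macrophage and other cell markers are given as sums. The members and lists were chosen with earlier results of these data known. Same-numbered libraries did not deviate together (correlations from -0.309 to 0.142), and the labels pair none.

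Alternatives were pseudocounts of 0.1 and 1, no filter or a filter at 1 RPKM, TMM, TPM and quantile scaling, voom on recovered reads, the replicate number as a block, only the 6 libraries compared, leaving out each library, and the plain total of reads, the last added after seeing the data. Sequences were read from the GENCODE transcripts and RefSeq promoter windows with Python 3.11.15.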

Additional observations from a re-analysis of the deposited data

How the results depend on the processing

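Cluster calls depended on the settings and the libraries. For cluster genes lower in DKO against WT (2 as reported), the count was 0 without a filter, in TPM, with only the 6 libraries compared and with the plain total of reads, 9 with quantile normalization, and 0 to 8 when 1 library was left out. For those higher (1), it was 0 with a filter at 1 RPKM, quantile normalization and the 6 libraries, and 0 to 1 with 1 library left out. In DKO_TG against WT, cluster genes called higher (1) were 0 with the filter at 1 RPKM and quantile normalization and 1 to 2 with 1 library left out, and those lower (0) were 5 with quantile normalization. In DKO_TG against DKO, 0 to 1 cluster genes were called higher with 1 library left out.

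Variant calls depended on the scale. In DKO against WT, variants lower (5) were 0 in TPM, 3 with the 6 libraries, 1 with the plain total and 4 to 5 with 1 library left out. Variants higher (0) were 1 without a filter, 4 in TPM, 3 with quantile normalization, 2 with the plain total and 0 to 1 with 1 library left out. In DKO_TG against WT, variants lower (4) were 0 in TPM, 1 with the plain total and 2 to 5 with 1 library left out, and variants higher (0) were 1 without a filter, 5 in TPM, 2 with quantile normalization and 1 with the plain total. Against WT the sign turned for H2afy2 in TPM (0.2205 in DKO, 0.0135 in DKO_TG), for H2afz in DKO in TPM (0.0832) and quantile normalization (0.170), for Hist2h4 in DKO with quantile normalization (-0.0278), for H2afv in DKO_TG in TPM (0.295), quantile normalization (0.0696) and the plain total (0.0341), and for H3f3c in DKO_TG in TPM (0.213) and quantile normalization (0.348). TPM and the plain total differ from the deposited values by a factor per library. The other causes were not tested.

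Same-numbered libraries share only a number. With the replicate block, 6 cluster genes were lower in DKO against WT and 2 variants lower in DKO_TG against WT, where H2afv and H3f3c were lost (adjusted p = 0.0843 and 0.0989 in limma).

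The log2 ratio of the mean summed cluster level was -0.476 in DKO against WT (-0.816 to -0.0974 with 1 library left out), 0.00679 in DKO_TG against WT (-0.278 to 0.244, and 0.521 in TPM) and 0.483 in DKO_TG against DKO (0.104 to 0.823). The ratio of cluster to variant sums ranged from 0.260 to 0.298 in WT, 0.187 to 0.328 in DKO and 0.277 to 0.384 in DKO_TG with 1 library left out. From reads per library total it was 0.161 in WT and 0.166 in DKO_TG, and with classes set by the stem-loop match 0.177 and 0.188. A planned count test (edgeR) was not run because the table holds RPKM. With 3 libraries a group, the wide spread of the cluster limits what could be called.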
